A study of Arabidopsis thaliana with 7 samples.

Results

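The SQUAMOSA PROMOTER BINDING PROTEIN-LIKE (SPL) genes of Arabidopsis thaliana encode plant transcription factors with an SBP domain. Described here are the 10 SPL genes whose transcripts carry a site for microRNA miR156: SPL2, SPL3, SPL4, SPL5, SPL6, SPL9, SPL10, SPL11, SPL13A and SPL15. They were taken by gene identifier from the 32548 genes of a table of RNA-seq read counts, and all 10 passed the filter on low counts that left 29226 genes to test. RefSeq gives 9 of the 10 identifiers the same symbol and lists SPL6 as a synonym for the other.

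RNA was read in 2 libraries of whole seedlings of the hon45 mutant and in 2 libraries of whole Col-0 wild-type (WT) seedlings. Both genotypes were harvested 10 days after germination and grown on agar medium at 22 °C in long days of 16 h light and 8 h dark, with no further treatment. The mutant is named for HON4 and HON5, chromatin proteins with a linker-histone-like domain; neither its alleles nor the number of plants per library is given in the sources used here. The study asked which genes depend on HON4 and HON5, and its title places it in the control of flowering time; 3 chromatin immunoprecipitation samples of the series were not analysed here.

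In young plants miR156 is abundant and holds SPL transcripts low by cleaving them and blocking their translation. As the shoot ages miR156 declines and SPL proteins accumulate, which drives the change from juvenile to adult leaves and, later, flowering. SPL9 and its close relative SPL15 activate MIR172 genes, whose microRNA represses a group of AP2-like repressors of flowering. SPL3, SPL4 and SPL5 act at the shoot tip on floral genes such as FUL, LFY and AP1. RNA of a whole seedling mixes leaf, stem, root and meristem.

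No SPL gene passed the test between hon45 and WT seedlings. Of the 10 genes, 0 were higher and 0 were lower in hon45 at an adjusted p under 0.05 (quasi-likelihood test of edgeR, p-values adjusted by Benjamini-Hochberg over all tested genes), and 0 of the 10 had an unadjusted p under 0.05. Over all tested genes 4.1% were called, 1199 of 29226, with 724 higher in hon45 (2.48%) and 475 lower (1.63%). Removing a trend of the fold changes with gene length, fitted on genes from 5 CPM, turned that split to 436 higher (1.68%) and 751 lower (2.9%). Removing the trend fitted from 1 CPM left 439 higher (1.69%) and 310 lower (1.2%). Both fits covered 25906 genes and 9 of the SPL genes, without SPL13A, and 0 SPL genes were called in either. An unadjusted p under 0.05 was found for 5237 genes in all. The median log2 fold change (hon45 over WT) was -0.06 over the SPL genes, 4 of them above 0 and 6 below, and -0.04 over all tested genes.

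The summed level of the 10 SPL genes was 51.4 and 53.2 CPM (a gene's counts scaled to the total of its library) in hon45, against 54.5 and 51.9 CPM in WT. The hon45 libraries thus averaged 52.3 ± 1.33 CPM and the WT libraries 53.2 ± 1.84 CPM (SD, n = 2 each), with overlapping ranges. SPL13A supplied the largest share of the counts over the 10 genes, a mean of 25.9% over the 4 libraries, followed by SPL9 with 16.3% and SPL2 with 15.4%. SPL3 supplied the smallest, 1.96%. The SPL13A share, and with it the sum, is uncertain. Its near-identical copy SPL13B, which is not in the sum, held 96.1% to 98.4% of the SPL13A count in each library. Because these are bulk samples, fewer cells of a type and less RNA per cell cannot be told apart.

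**Figure D1:**
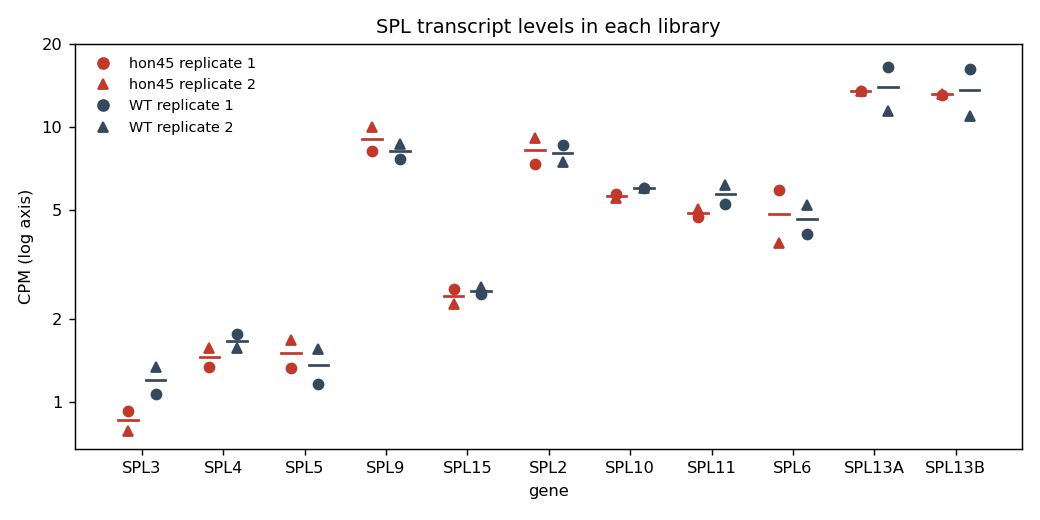
Level of each SPL gene in each library, in CPM on a log axis, with hon45 in red left of WT in blue; circles are replicate 1, triangles replicate 2 and bars the group means. The symbols of the genotypes overlap for most genes; for SPL3, SPL10 and SPL11 both hon45 libraries lie below both WT libraries.

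SPL3, SPL4 and SPL5 encode small proteins that promote flowering, and they had the fewest counts of the 10 genes. SPL3 (AT2G33810, chromosome 2, 14305001 to 14306072; all coordinates are the loci of the deposited files on TAIR10) had 0.927 and 0.787 CPM in hon45, against 1.07 and 1.34 CPM in WT. Both hon45 libraries were below both WT libraries. This was the largest fold change of the 10 genes, a log2 fold change of -0.50 with a standard error of 0.36 and a 95% interval from -1.24 to 0.25, and it did not pass the test (adjusted p = 0.504, edgeR quasi-likelihood test). The libraries held 56 and 45 counts in hon45, against 58 and 85 counts in WT, so a fall to 0.423 of the WT level and a rise to 1.19 times it both lie within the interval.

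What was counted for SPL3 cannot be separated from its overlapping partner. The lncRNA gene AT2G33815 shares 1046 of the 1072 bases of the SPL3 span in RefSeq. It had 55 and 45 counts in hon45, against 58 and 85 counts in WT, equal to SPL3 in 3 libraries and 1 count lower in hon45 replicate 1, and whether counting used the strand is not stated. In FPKM (fragments per length of transcript, scaled to the mapped total), a value that the authors deposited for each library, SPL3 had 0.432 and 0.798 in hon45, against 1.39 and 1.51 in WT. On log2(FPKM + 1) the difference was -0.61 (limma-trend, unadjusted p = 0.0101, adjusted p = 0.126), and with a pseudocount of 0.1 it was -1.16 (adjusted p = 0.144). The lncRNA was listed at 0.613 FPKM in hon45 replicate 1 and below 0.0001 FPKM in the other libraries, so SPL3 has its lowest FPKM in the library where the lncRNA has a value.

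SPL4 (AT1G53160, chromosome 1, 19806419 to 19807608) had 1.34 and 1.57 CPM in hon45, against 1.77 and 1.57 CPM in WT. SPL5 (AT3G15270, chromosome 3, 5138686 to 5142644) had 1.32 and 1.68 CPM in hon45, against 1.16 and 1.56 CPM in WT. The SPL5 locus of the deposited files is longer than the 1959 bases of its span in RefSeq. For SPL4 1 hon45 library lay below both WT libraries and the other was level with the lower of them, and for SPL5 the libraries of the genotypes alternated. The log2 fold changes were -0.20 for SPL4 (standard error 0.29, adjusted p = 0.789) and 0.13 for SPL5 (standard error 0.31, adjusted p = 0.877), by the same edgeR test. The 3 genes together had 3.59 and 4.04 CPM in hon45, against 4.01 and 4.46 CPM in WT.

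Genes this weakly expressed as a class sat lower in 1 hon45 library. Among the 2980 tested genes with a mean of 1 to 2 CPM, which include SPL3, SPL4 and SPL5, the median log2 deviation from a gene's own mean was 0.10 in hon45 replicate 1 and -0.31 in hon45 replicate 2, against 0.14 and 0.10 in the WT libraries. In that band 31.2% of genes had the hon45 libraries both below the WT libraries and 6.64% had them both above, and the median log2 fold change was -0.20. Between 5 and 20 CPM, where 5 of the SPL genes lie, it was 0.05. The part of this shift in the values of SPL3, SPL4 and SPL5 was not tested. SPL5 lies wholly inside the span of AT3G15260, a gene at 27.26 and 29.89 CPM in hon45, against 32.98 and 31.65 CPM in WT, and SPL4 shares 197 bases with the miR156 gene MIR156i; both values are uncertain for that reason.

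SPL9 and SPL15 are close relatives that promote adult leaf traits and flowering, and SPL9 also limits trichomes and anthocyanin. SPL9 (AT2G42200, chromosome 2, 17587407 to 17589630) had 8.14 and 9.95 CPM in hon45, against 7.61 and 8.69 CPM in WT. SPL15 (AT3G57920, chromosome 3, 21444321 to 21446035) had 2.58 and 2.27 CPM in hon45, against 2.48 and 2.61 CPM in WT. In both genes the ranges of the genotypes overlapped in CPM. SPL9 had the most positive log2 fold change of the 10 genes, 0.15 with a standard error of 0.15 and a 95% interval from -0.16 to 0.46 (edgeR quasi-likelihood test, adjusted p = 0.660), and SPL15 had -0.07 with a standard error of 0.24 (adjusted p = 0.922).

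Without hon45 replicate 2 the SPL9 log2 fold change was -0.0007, and without hon45 replicate 1 it was 0.32. SPL15 lies inside the span of AT3G57910, a gene with 4.67 and 4.60 CPM in hon45, against 4.10 and 4.70 CPM in WT. SPL9 shares 68 bases with the miR156 gene MIR156j, which had 18 and 28 counts in hon45, against 21 and 34 counts in WT.

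SPL2, SPL10 and SPL11 form the group known for shaping leaves and for timing in the embryo and the shoot. They had 17.7 and 19.7 CPM together in hon45, against 19.8 and 19.6 CPM in WT. SPL2 (AT5G43270, chromosome 5, 17360287 to 17363773) had 7.32 and 9.13 CPM in hon45, against 8.59 and 7.46 CPM in WT, so that the hon45 libraries lay on either side of the WT libraries. Its log2 fold change was 0.04 with a 95% interval from -0.28 to 0.35 (edgeR quasi-likelihood test, adjusted p = 0.935).

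SPL10 and SPL11 are neighbours on chromosome 1, and in both genes the hon45 libraries were below the WT libraries. SPL10 (AT1G27370, 9505201 to 9508481) had 5.69 and 5.53 CPM in hon45, against 5.99 and 5.97 CPM in WT. SPL11 (AT1G27360, 9501077 to 9503869) had 4.72 and 5.04 CPM in hon45, against 5.25 and 6.14 CPM in WT. The fold changes were small and failed the test: a log2 fold change of -0.09 for SPL10 (95% interval -0.43 to 0.24, adjusted p = 0.822) and -0.23 for SPL11 (95% interval -0.58 to 0.13, adjusted p = 0.528; edgeR quasi-likelihood test). Neither overlaps another counted gene by RefSeq spans, and nor does SPL2.

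SPL6 (AT1G69170, chromosome 1, 26005068 to 26007263), a member best known for a role in plant immunity, had 5.88 and 3.78 CPM in hon45, against 4.08 and 5.20 CPM in WT. The hon45 libraries stood on either side of both WT libraries and differed from each other 1.56-fold, the widest replicate gap among the hon45 values of the 10 genes. Its log2 fold change was 0.05 with a standard error of 0.21 (edgeR quasi-likelihood test, adjusted p = 0.928), and the sign depended on the library left out, from -0.26 without hon45 replicate 1 to 0.34 without hon45 replicate 2. SPL6 shares 19 bases with the gene CRC, which had 43 and 21 counts in hon45, against 47 and 36 counts in WT.

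SPL13 exists in near-identical copies, SPL13A and SPL13B, known for a role in the passage of the seedling from the cotyledon stage to leaf growth. SPL13A (AT5G50570, chromosome 5, 20580256 to 20584559) had 13.4 and 13.5 CPM in hon45, against 16.5 and 11.4 CPM in WT. It had more counts than any other of the 10 genes in every library. Its locus in the deposited files is longer than the 2639 bases of its span in RefSeq. The hon45 libraries agreed closely and lay between the WT libraries, which differed 1.45-fold. The log2 fold change was -0.04 with a 95% interval from -0.35 to 0.26 (edgeR quasi-likelihood test, adjusted p = 0.912), and it moved from 0.25 without WT replicate 1 to -0.29 without WT replicate 2, where the unadjusted p was 0.0300 and the adjusted p 0.155.

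The copies could not be told apart in these counts. SPL13B (AT5G50670, chromosome 5, 20615704 to 20617901) had 786 and 755 counts in hon45, against 879 and 696 counts in WT, while SPL13A had 812 and 772 counts in hon45, against 893 and 724 counts in WT. The copy thus held 96.8% and 97.8% of the SPL13A count in hon45, against 98.4% and 96.1% in WT, and its log2 fold change was -0.05 (edgeR quasi-likelihood test, adjusted p = 0.910). In the FPKM files both copies are listed at 0 in all 4 libraries, so they have no level per length, and their counts are uncertain as measures of either copy. SPL13A also shares 96 bases with the gene AT5G50565, which had 915 and 974 counts in hon45, against 684 and 899 counts in WT.

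**Figure D2:**
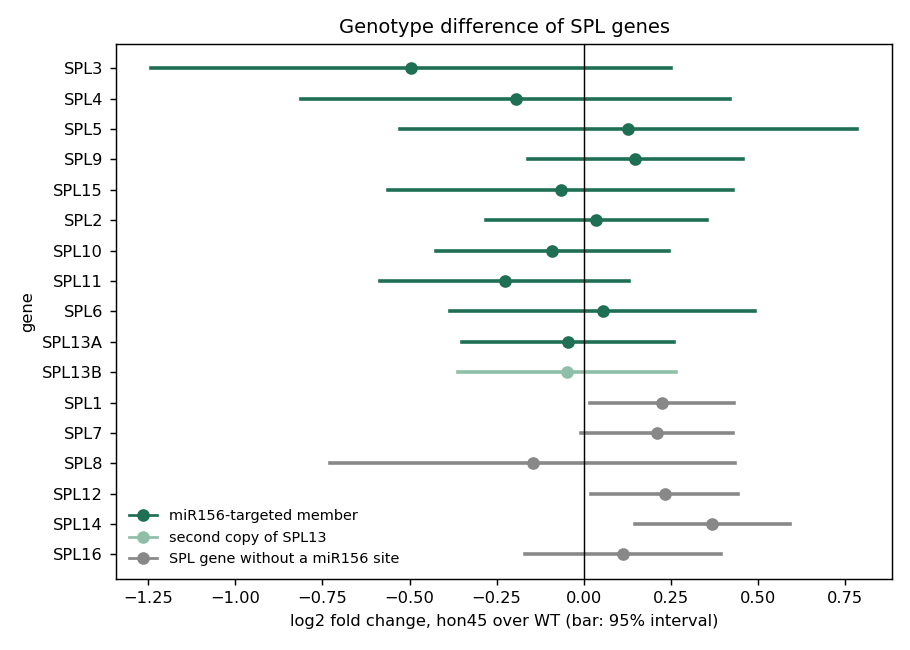
Log2 fold change of each SPL gene, hon45 over WT, with its 95% interval from the edgeR fit, for the miR156-targeted genes, for the second SPL13 copy and for the SPL genes without a miR156 site. Every interval of a miR156-targeted gene spans 0; SPL3 has the lowest estimate, -0.50, and SPL9 the highest, 0.15.

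Levels can be compared between genes per length of transcript, in FPKM. SPL9 (mean 5.65 FPKM over the 4 libraries) and SPL2 (5.27 FPKM) had the highest levels, and their ranges over the libraries overlapped. A gap separated them from SPL11 (3.62 FPKM), SPL10 (3.45 FPKM), SPL6 (3.01 FPKM), SPL4 (1.996 FPKM) and SPL15 (1.93 FPKM), among which each gene's range overlapped that of the next. SPL3 (1.03 FPKM) and SPL5 (0.803 FPKM) were lowest, overlapped each other and stayed below all values of SPL15. The order put SPL4 beside SPL15, although SPL4 had the lower CPM of this pair. Of the 9 genes with an FPKM value above 0, SPL3, SPL10, SPL11 and SPL15 had the hon45 libraries both below the WT libraries, and 0 had them both above. Over all genes with FPKM values 24.8% lay below in this way and 23.5% above, 48.2% in all.

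**Figure D3:**
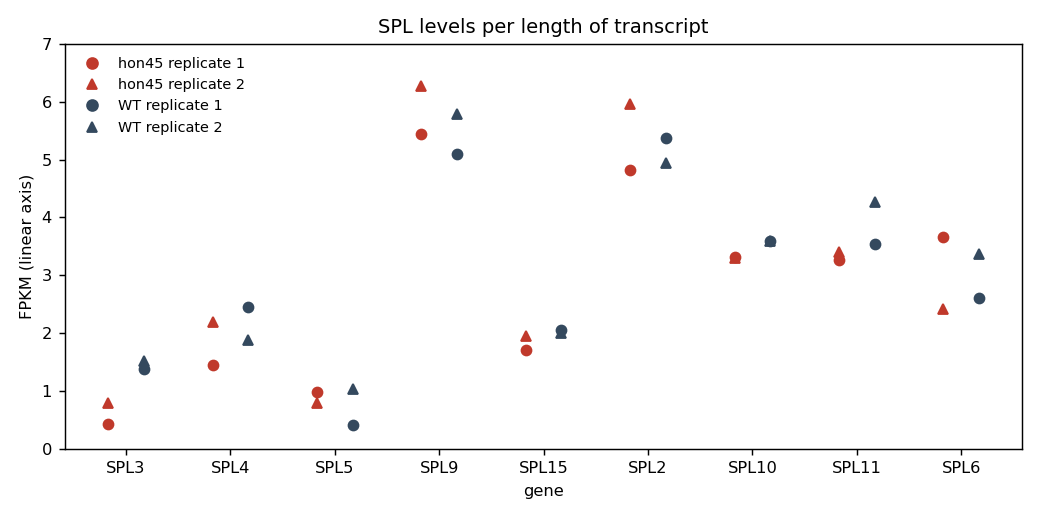
FPKM of 9 SPL genes in each library on a linear axis, hon45 in red left of WT in blue, circles for replicate 1 and triangles for replicate 2; SPL13A and SPL13B, listed at 0, are not drawn. SPL9 and SPL2 stand above the others in every library, and the SPL3 values separate the genotypes, 0.432 and 0.798 FPKM in hon45 against 1.39 and 1.51 FPKM in WT.

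The spread between replicate libraries was as large as the difference between genotypes for most SPL genes. In 8 of the 10 the mean difference on the log2 CPM scale was smaller than the gap between the replicates of at least 1 genotype, SPL3 and SPL10 being the exceptions. In CPM 3 of the 10 had the hon45 libraries both below the WT libraries and 0 had them both above, where 26.2% of all tested genes lay below, 23.1% above and 49.3% on one side or the other. The fold changes kept their sign under all alternatives run for 4 genes, SPL3, SPL4, SPL10 and SPL11, all with negative values. The other 6 changed sign under at least 1 alternative. Neither the replicate-gap count nor the count of kept signs was made over all tested genes, so neither sets the SPL genes apart.

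Other genes at the level of the SPL genes passed the test with differences of moderate size. They were picked by passing, so they do not show what change an SPL gene would have needed. Among the 12648 tested genes with mean levels in the range of the SPL genes, 1.03 to 13.7 CPM, 329 (2.6%) were called, with absolute log2 fold changes from 0.44 upward and a median of 0.71. The standard errors of the SPL genes were 0.15 to 0.36, against a median of 0.19 in that range. For SPL2, SPL6, SPL9, SPL10 and SPL13A the 95% intervals stayed within 0.5 on either side of 0, and for SPL3, SPL4 and SPL5 they reached beyond 0.7. A missed threshold does not show that a gene was equal in the genotypes.

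**Figure D4:**
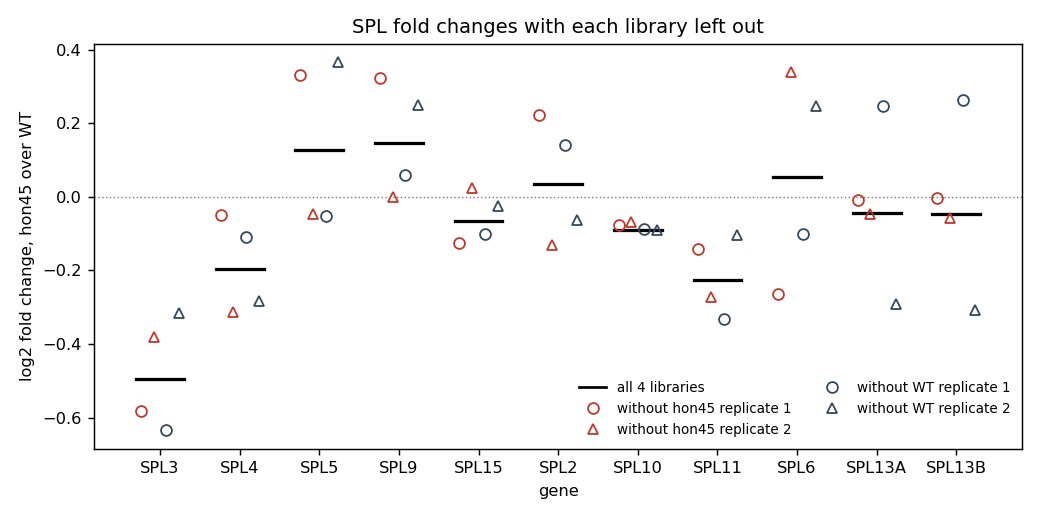
Log2 fold change of each SPL gene, hon45 over WT, with all 4 libraries (black bars) and with each library left out in turn (open symbols; red without a hon45 library, blue without a WT library). SPL10 stays between -0.09 and -0.07, while SPL6 and SPL13A move to either side of 0 with the library left out.

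SPL genes without a miR156 site served as a comparison within the family. Of the 6, SPL1, SPL7, SPL8, SPL12, SPL14 and SPL16, 0 were called, 5 had values above 0 and the median log2 fold change was 0.22. Without WT replicate 2 the median of the 6 was 0.24. SPL1, the most expressed and with SPL12 known for heat tolerance of the inflorescence, had 114.7 and 122.5 CPM in hon45, against 97.4 and 105.6 CPM in WT, a log2 fold change of 0.22 (edgeR quasi-likelihood test, adjusted p = 0.231). Without WT replicate 2 its log2 fold change was 0.29, and that of SPL12 was 0.34. With the gene-length trend removed, the SPL1 value was 0.03 when fitted from 5 CPM and 0.21 when fitted from 1 CPM. SPL14, named here after its values were seen, had 47.0 and 52.6 CPM in hon45, against 35.5 and 41.6 CPM in WT. Its libraries were higher in hon45 without overlap, and its log2 fold change was 0.37 with a standard error of 0.11 (adjusted p = 0.0561). It passed the threshold with RLE size factors (adjusted p = 0.0360) and with the edgeR exact test (0.0405). With 1 library left out its log2 fold change ran from 0.26 to 0.49. With the gene-length trend fitted from 5 CPM removed its log2 fold change was 0.16, where the median of the 6 was 0.03. With the trend fitted from 1 CPM removed the median of the 6 was 0.20. The difference between SPL genes with and without the site was not tested.

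Upstream of the SPL genes, the miR156 and miR157 genes gave few reads. The libraries were made from poly(A) RNA, which holds the long primary transcripts and not the mature microRNA, so the level of miR156 itself was not measured. The 12 genes of the list, which leaves out MIR156i and MIR156j, together had 171 and 147 counts in hon45, against 167 and 176 counts in WT, and 0 of the 4 that passed the filter were called (1 above 0, median log2 fold change -0.40). That median changed sign in some settings where more of the genes entered. It was 0.37 over 6 genes without hon45 replicate 2 and 0.40 over 6 genes without WT replicate 1. Over all 12 genes with no count filter it was 0.29. Among all tested genes the median was -0.30 under 0.5 CPM and -0.28 from 0.5 to 1 CPM. MIR156C (-0.63, adjusted p = 0.573, edgeR quasi-likelihood test) and MIR157A (-0.71, adjusted p = 0.464) stayed below 0 under all alternatives run, 18 and 13. Both had under 1 CPM in every library and were named here after their values were seen. The most expressed, MIR157C, had 0.910 and 0.700 CPM in hon45, against 0.628 and 0.691 CPM in WT, a log2 fold change of 0.29 (edgeR quasi-likelihood test, adjusted p = 0.778). In FPKM MIR157C went the other way, listed at 0 and 3.01 in hon45, against 6.16 and 3.47 in WT, a difference of -1.50 on log2(FPKM + 1) (limma-trend, unadjusted p = 0.0367, adjusted p = 0.193) and of -3.08 with a pseudocount of 0.1 (adjusted p = 0.240).

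Genes for proteins that make or use microRNAs all had values above 0 without passing the test: 0 of 7 were called, 7 had both hon45 libraries above both WT libraries, and the median log2 fold change was 0.22. Over all tested genes 23.1% lay above in this way, 34.3% of those between 5 and 20 CPM and 35.9% of those from 20 CPM. AGO1, which carries miR156 to its targets, had 158.6 and 175.9 CPM in hon45, against 145.4 and 151.6 CPM in WT, a log2 fold change of 0.17 (edgeR quasi-likelihood test, adjusted p = 0.397). With the length trend fitted from 5 CPM removed, 3 of the 7 remained above 0 and the median was -0.02. With the trend fitted from 1 CPM removed, all 7 remained above 0 and the median was 0.23. Of 11 chromatin and transcriptional regulators of MIR156 genes 0 were called (6 above 0, median 0.03). The most expressed by mean CPM, the chromatin remodeller BRM, had 36.4 and 34.1 CPM in hon45, against 30.5 and 24.5 CPM in WT, a log2 fold change of 0.36 (adjusted p = 0.0763). BRM passed with RLE size factors (adjusted p = 0.0471) and without WT replicate 1 (0.52, adjusted p = 0.000369), and its log2 fold change was 0.21 without WT replicate 2 (adjusted p = 0.228) and 0.11 with the length trend fitted from 5 CPM removed (adjusted p = 0.611). CLF, a Polycomb methyltransferase named here after its values were seen, had 0.46 (adjusted p = 0.0715). It passed with RLE size factors (0.0458) and with the edgeR exact test (0.0349). The CLF log2 fold change ran from 0.38 to 0.58 with 1 library left out. It was 0.27 with the length trend fitted from 5 CPM removed (adjusted p = 0.295). The list median was -0.15 with the trend fitted from 5 CPM removed and 0.01 with the trend fitted from 1 CPM removed. Of the 5 DELLA proteins, which bind SPL proteins in the gibberellin response, 0 were called (4 above 0, median 0.05). That median was -0.04 without WT replicate 1. It was -0.07 with the trend fitted from 5 CPM removed and -0.004 with the trend fitted from 1 CPM removed. The most expressed, RGA, had 107.6 and 106.5 CPM in hon45, against 103.0 and 100.2 CPM in WT, a log2 fold change of 0.07 (adjusted p = 0.745).

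**Figure D5:**
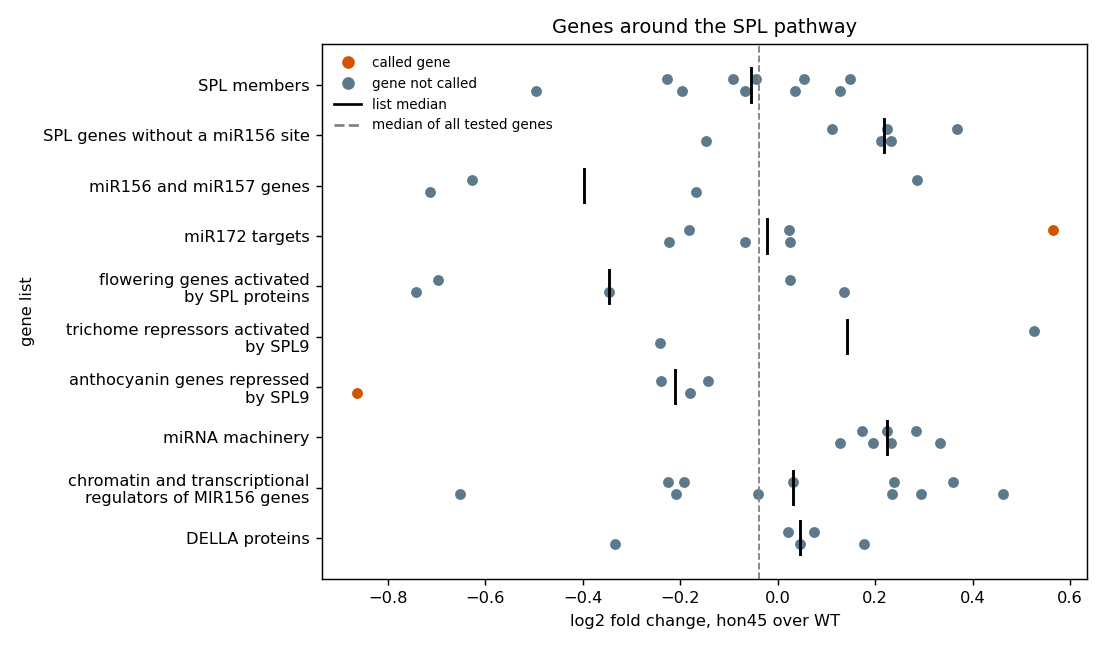
Log2 fold change, hon45 over WT, of every tested gene in the lists around the SPL pathway; orange points passed the test, black bars are list medians and the dashed line is the median of all tested genes. Among the genes drawn, TOE3 (0.56) and TT7 (-0.86) are the ones that passed.

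Downstream, flowering genes that SPL proteins activate were not called: 0 of 5 (2 above 0, median log2 fold change -0.35). SOC1, a MADS-box integrator of flowering signals and the most expressed of them, had 9.62 and 10.8 CPM in hon45, against 10.0 and 15.8 CPM in WT. Its log2 fold change was -0.35 with a standard error of 0.17 (edgeR quasi-likelihood test, adjusted p = 0.277), and it rested on which WT library was used: without WT replicate 1 it was -0.63 (adjusted p = 0.000719) and without WT replicate 2, the higher of the pair, it was 0.03 (adjusted p = 0.964). The list median likewise ran from -0.69 without hon45 replicate 1 and -0.62 without WT replicate 1 to -0.12 without WT replicate 2. LFY and AP1, direct SPL3 targets in the floral meristem and named here after their values were seen, had -0.70 (adjusted p = 0.247) and -0.74 (adjusted p = 0.226) at levels of 0.84 to 1.85 CPM, inside the range where hon45 replicate 2 was low; the part of that shift was not tested. In FPKM AP1 lay the other way, at 0.147 and 0.113 in hon45, against 0.0810 and 0.104 in WT (difference 0.05 on log2(FPKM + 1), limma-trend with no filter, adjusted p = 0.843).

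The 5 miR172 genes, SPL9 and SPL15 targets among them, had 21 and 15 counts together in hon45, against 16 and 30 counts in WT, and 0 passed the filter. Of the 6 AP2-like targets of miR172, 1 was higher and 0 were lower in hon45 (median log2 fold change -0.02). TOE3, an AP2-like repressor, had 10.9 and 12.9 CPM in hon45, against 8.15 and 7.95 CPM in WT, and rose by a log2 fold change of 0.56 with a standard error of 0.14 (edgeR quasi-likelihood test, adjusted p = 0.0246). It was called under 14 of 19 alternatives, and the call was lost without hon45 replicate 2 (0.43, adjusted p = 0.378) and in FPKM.

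SPL9 also activates trichome repressors and holds back anthocyanin genes. Of TCL1 and TRY 0 were called; TRY, the more expressed, had 1.87 and 1.38 CPM in hon45, against 0.831 and 1.40 CPM in WT, a log2 fold change of 0.53 (edgeR quasi-likelihood test, adjusted p = 0.442). Of 4 late anthocyanin genes 1 was lower and 0 were higher in hon45 (median -0.21). TT7, which encodes flavonoid 3'-hydroxylase, had 27.1 and 32.8 CPM in hon45, against 75.2 and 34.1 CPM in WT, and fell by 0.86 on the log2 scale (standard error 0.21, adjusted p = 0.0261). WT replicate 1 stood far above the other libraries, and without it the TT7 log2 fold change was -0.19 and the call was lost. The list median was 0.34 without WT replicate 1 and -0.61 without WT replicate 2. The TT7 call was also lost without either hon45 library (adjusted p = 0.1605 without replicate 1 and 0.1165 without replicate 2), and it held under 9 of 19 alternatives.

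Tissue markers and the mutated genes were read in the same fit. HON4 had 39.2 and 41.0 CPM in hon45, against 99.3 and 104.1 CPM in WT (log2 fold change -1.34, adjusted p = 5.42e-08), and HON5 had 14.0 and 15.9 CPM in hon45, against 97.7 and 91.7 CPM in WT (-2.66, adjusted p = 3.09e-12). Green leaf, shoot meristem and root markers had counts in every library, with 0 of 3, 0 of 4 and 2 of 4 called. Among the shoot meristem genes WUS was weak, with 0.78 and 0.70 CPM in hon45, against 0.81 and 0.97 CPM in WT. CLV3 was weaker, with 0.41 and 0.10 CPM in hon45, against 0.39 and 0.27 CPM in WT. The root genes CASP1 (-0.51, adjusted p = 0.0123) and EXP7 (-0.47, adjusted p = 0.0160) were lower in hon45. The other root genes lay above 0 without passing, PYK10 at 0.25 (adjusted p = 0.540) and SCR at 0.07 (adjusted p = 0.775), with the hon45 libraries above the WT libraries in both. The calls of CASP1 and EXP7 were lost without hon45 replicate 1 (adjusted p = 0.161 for CASP1 and 0.221 for EXP7), without hon45 replicate 2 (0.187 and 0.172) and in FPKM. Floral organ markers summed to 4.97 and 2.92 CPM in hon45, against 5.08 and 5.36 CPM in WT, and seed and embryo markers to 2.57 and 1.96 CPM in hon45, against 3.57 and 2.67 CPM in WT, with 0 of 4 and 0 of 3 called. The most expressed of each uncalled marker list by mean CPM were LHCB1.3 in leaf (0.18, adjusted p = 0.795), STM in the shoot meristem (0.11, adjusted p = 0.808), AG in floral organs (-0.36, adjusted p = 0.683) and CRA1 in seed (-0.66, adjusted p = 0.346). In FPKM AG and CRA1 were not the highest of their lists. The part of the marker genes in the SPL values was not tested.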

How the data were processed

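RNA-seq of 4 seedling libraries (hon45 and WT, 2 each) was used. Raw whole-number counts per gene were deposited by the authors in 1 table, and FPKM values per library in separate files, per the file headers; replicates were not pooled. The submitters' processing notes name HISAT2, Bowtie2, edgeR, deepTools and TAIR10; which programs counted reads and made FPKM, and whether by strand, is not given in the sources used here. Libraries held 59639582 and 58390911 counts in hon45, against 53858439 and 63543079 counts in WT.

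Counts were filtered (filterByExpr), scaled by TMM and compared with the quasi-likelihood test of edgeR 4.0.16 (R 4.3.3; 2 residual degrees of freedom, Benjamini-Hochberg over 29226 genes), tested on simulated data. DESeq2 1.42.0, limma 3.58.1 on log2(FPKM + 1), keeping genes that reached 1 FPKM in 2 libraries, and other alternatives, 20 in all, were run. No label says that replicates came from separate cultures, so p-values measure the spread between these libraries. Overlaps and symbols came from RefSeq (TAIR10.1). The SPL genes and all lists were chosen with earlier results of these data known. Named were all SPL members and SPL13B, and, of each other list, every called gene or else the most expressed tested one by mean CPM. Named beyond that rule, with their values seen, were SPL7, SPL8, SPL12, SPL14, SPL16, MIR156C, MIR157A, LFY, AP1, TCL1, CLF, PYK10, SCR, WUS and CLV3.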

Additional observations from a re-analysis of the deposited data

How the results depend on the processing

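Over 20 alternatives the SPL genes gave 180 fold changes and 0 calls; 173 had an adjusted p, the lowest being 0.126 (SPL3 in FPKM). DESeq2 gave an adjusted p to 3 SPL genes, the filter at 5 CPM in 2 libraries kept 6, and FPKM fits held 8 or 9. The count over all genes (1199) fell to 724 with that filter, 325 at an adjusted p under 0.01, 749 with the length trend fitted from 1 CPM removed, and 121, 110 and 7 in FPKM with pseudocounts of 1 and 0.1 and with no filter. Without 1 library it ran from 119 (without hon45 replicate 2) to 3836 (without WT replicate 2), with 435 without hon45 replicate 1; the cause was not tested. DESeq2 called 776 higher and 283 lower. With the replicate number as a block, 1767 genes and 0 of the 10 SPL genes were called, and SPL14 (0.0251) and BRM (0.0351) had an adjusted p past the threshold; same-numbered libraries deviated together with a correlation of 0.022, so the numbers were not taken as pairs. The older quasi-likelihood method, chosen after seeing the data, called 1149. Low counts limit SPL3, SPL4 and SPL5 most.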

Other observations

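For 15111 protein-coding genes averaging 5 CPM or more, the pattern over the 4 libraries was compared with that of the summed SPL genes, whatever the level. By root mean square distance of centred log2 CPM the closest were AT4G00560 (0.0026), EXL3 (0.0038) and AT1G09280 (0.0052). Within 0.05 lay 1745 genes.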
